A study of Mus musculus with 15 samples.

Results

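The CCN family comprises secreted, cysteine-rich proteins of the extracellular matrix that act on cells through integrins, proteoglycans and low-density lipoprotein receptor-related proteins. Its mouse members Ccn1 (older name Cyr61), Ccn2 (Ctgf), Ccn3 (Nov), Ccn4 (Wisp1) and Ccn5 (Wisp2) were taken by symbol from the gene count table, whatever their values, and all 5 were found among its 55416 genes. Their modules resemble those of other secreted proteins, and Ccn5 lacks the C-terminal cystine-knot module that the others carry. Ccn1 and Ccn2 are known as immediate-early and early response genes of the YAP/TEAD, MRTF/SRF and TGF-beta pathways, and Ccn2 is best known in the kidney for its link to matrix accumulation and glomerular scarring. Ccn3 is often described as a counterpart of Ccn2, and Ccn4 as a target of Wnt signalling.

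The libraries came from SVI cells, a single conditionally immortalised line of mouse podocytes, the epithelial cells that cover the glomerular capillaries. All cells were differentiated and grown on flexible silicone membranes. Experiment 1 held 3 unstretched libraries and 6 low-stretch libraries with a membrane deflection labelled 5 to 6 mm, and experiment 2 held 3 unstretched libraries and 3 high-stretch libraries labelled 7 to 8 mm. Amplitude and experiment were the same split, so stretched libraries were set against unstretched ones from the same experiment, and an effect of amplitude and an effect of experiment cannot be told apart. The codes in the sample descriptions form an unbroken series of plate positions. It was divided here into 6 runs of neighbouring positions, each starting at its 1 unstretched library, so the runs are inferred. Runs 1 to 3 of experiment 1 hold 2 low-stretch libraries each, and runs 4 to 6 of experiment 2 hold 1 high-stretch library each. The labels do not say whether libraries of a group are separate cultures, so p-values measure the spread between these libraries, which may be technical.

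Libraries held between 172.2 and 396.7 megacounts (M). Of 14 podocyte markers, 5 stayed under 1 CPM (counts scaled to a common library size) in every library, among them Nphs1, the gene of the slit-diaphragm protein nephrin, Ptpro and Tcf21. Synpo, Podxl, Actn4 and Kirrel were each above 100 CPM in every library. The summed podocyte markers ranged from 1900 to 2910 CPM, and the 6 endothelial markers each stayed under 1 CPM. Among podocyte markers Nes rose at both amplitudes (0.97 and 1.47, edgeR adjusted p 0.00506 and 0.0175), and Wt1 fell under high stretch (-2.36, edgeR adjusted p 0.0311). The 5 mesangial markers summed to 62.9 to 85.3 against 98.6 to 115 CPM in experiment 1 and to 91.2 to 111 against 108 to 142 CPM in experiment 2. Of the 4 parietal markers only Cd44 passed under high stretch, as higher (1.48, edgeR adjusted p 0.0250). The others, Cldn1 (-0.87), Pax2 (-0.29) and Pax8 (-0.08), had lower estimates that did not pass. Stretched libraries had lower sums of 5 proximal tubule markers, at 542 to 875 against 1120 to 1500 CPM in experiment 1 and 283 to 430 against 833 to 1070 CPM in experiment 2. Most of these sums came from Lrp2 and Aqp1. Lrp2 fell under low stretch (-0.65, edgeR adjusted p 0.0227) and did not pass under high stretch (-0.39, edgeR adjusted p 0.733). Aqp1 fell under high stretch (-3.62, edgeR adjusted p 0.0135) and did not pass under low stretch (-1.85, edgeR adjusted p 0.133). Cubn had higher estimates that did not pass (0.27 and 0.41, edgeR adjusted p 0.193 and 0.752). The 5 leukocyte markers summed to 7.38 to 14.5 against 25.8 to 28.5 CPM and to 5.29 to 8.54 against 20.9 to 22.2 CPM, most of it Csf1r, while Ptprc, Adgre1 and Itgam were at or near 0. Csf1r fell in both experiments (log2 fold change -1.51 and -2.02, edgeR adjusted p 0.00739 and 0.00808), whereas Cd68, at 1.64 against 0.902 CPM under high stretch, did not pass (0.86, edgeR adjusted p 0.165, and 0.0383 with the plate run block). Their part in the CCN results below was not tested.

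The promoter table used here, which RefSeq provides on the build GRCm38.p6, held 1 of the 5 members, Ccn1, and the promoters of Ccn2, Ccn3, Ccn4 and Ccn5 are named only. The window of 250 bases upstream of the annotated start of Ccn1, a reference target of YAP/TEAD, is shown because no other member's was available. It lies on chromosome 3, from 145649986 to 145650235, on the minus strand, and is printed 5′ to 3′ along the gene with the match to the TEAD motif in capitals.
Ccn1: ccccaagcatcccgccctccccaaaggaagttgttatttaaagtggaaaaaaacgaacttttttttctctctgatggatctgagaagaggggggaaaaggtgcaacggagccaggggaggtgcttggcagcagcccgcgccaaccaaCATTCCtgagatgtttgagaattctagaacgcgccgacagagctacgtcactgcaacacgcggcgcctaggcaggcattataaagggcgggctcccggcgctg
The capitals are the reverse complement of GGAATG, at positions -103 to -98 counted from the start of transcription. GGAATG on either strand occurred in 12.6% of the 32851 promoter windows of the same length in the table. GGGCGG, the core of the SP1 motif, matched on both strands of the Ccn1 window, at -19 to -14 and at -239 to -234, and occurred in 32.7% of all windows. No match was found for TGANTCA (AP-1, in 6.75% of windows), CAGAC (SMAD, in 42.2%) or the CArG box of SRF (in 1.47%), each searched on both strands. None of these matches overlapped another.

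Ccn2 carried the clearest change in the family. Under high stretch it was higher in all 3 libraries than in any of the 3 unstretched ones, by a factor of 4.34. Under low stretch its mean was also higher, by a factor of 2.56, but the groups overlapped and the difference passed the test only when libraries of the same plate run were compared. Ccn1, Ccn4 and Ccn5 did not pass the test at either amplitude in the comparison of groups, and Ccn3 was at or near 0 throughout. In these bulk libraries, fewer cells that express a gene and less RNA per cell cannot be told apart. Levels below are CPM on library sizes scaled within each experiment.

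**Figure D1:**
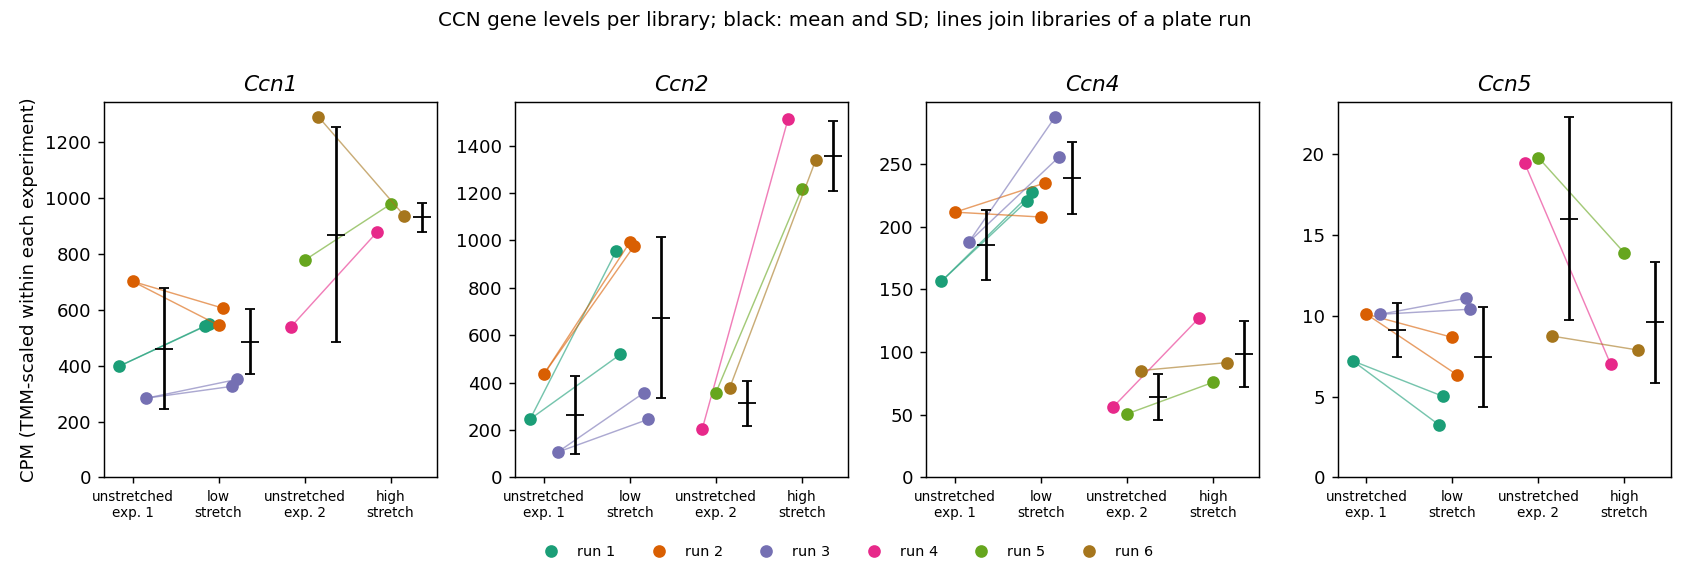
CPM of Ccn1, Ccn2, Ccn4 and Ccn5 (vertical axis, linear, from 0) in each of the 15 libraries by group, coloured by plate run, with lines from each run's unstretched library to its stretched libraries and black marks for the group mean ± SD. Every line for Ccn2 rises, whereas the lines for Ccn1 and, in experiment 1, Ccn4 and Ccn5 run both ways.

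Ccn2 (ENSMUSG00000019997), whose protein binds growth factors and integrins and is a mediator of fibrosis, measured 203, 357 and 377 CPM in the unstretched libraries of experiment 2. The high-stretch libraries measured 1217, 1338 and 1513 CPM. The lowest high-stretch value was thus above the highest unstretched value, and the means were 1356 ± 149 and 312 ± 95.5 CPM (SD, n = 3 each). This gave a log2 fold change of 2.12 (SE 0.27, 95% interval 1.5 to 2.74), with an adjusted p of 0.00877 by edgeR's quasi-likelihood test. By p-value Ccn2 ranked 96 among the 18524 genes tested, of which 3.47% passed and 1.31% passed as higher in this comparison. With the plate run block, 8.35% passed, and Ccn2 had a log2 fold change of 2.16 (edgeR adjusted p 1.64e-08). Of the same genes, 10.5% were higher without overlap between groups. Within each of the 3 runs Ccn2 was higher under stretch, by factors of 7.46, 3.41 and 3.55, and 19.3% of genes were higher in all 3. The call ended when high-stretch replicate 1 (log2 fold change 2.03, edgeR adjusted p 0.0556) or high-stretch replicate 3 (2.15, edgeR adjusted p 0.0626) was left out.

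In experiment 1 the unstretched libraries measured 107, 246 and 436 CPM of Ccn2. The 6 low-stretch libraries ranged from 245 to 993 CPM with a median of 737 CPM. The lowest 2 low-stretch values, 245 and 356 CPM, both of run 3, fell below the highest unstretched value, which came from run 2. The means were 674 ± 341 (SD, n = 6) and 263 ± 165 CPM (SD, n = 3), and the log2 fold change of 1.36 (SE 0.53, 95% interval 0.18 to 2.53) had an adjusted p of 0.154 by edgeR. None of the 4 members tested passed edgeR or was free of overlap between groups in this comparison, in which 5.45% of 21672 genes passed and 15.1% did not overlap. Of the 4, Ccn2 and Ccn4 had an unadjusted edgeR p under 0.05, as had 23.6% of all genes, and DESeq2 called Ccn4 among 2837 genes.

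Run by run the picture for Ccn2 was more even. Run 1 gave 955 and 519 CPM under low stretch against 246 CPM unstretched. Run 2 gave 993 and 977 CPM against 436 CPM. Run 3, with the lowest values in both conditions, gave 356 and 245 CPM against 107 CPM. All 6 low-stretch libraries were therefore above the unstretched library of their own run, by factors of 2.11 to 3.88. Those 6 pairs share 3 unstretched libraries, and 20.6% of the genes tested were higher in all 6. With plate run as a block in the edgeR fit, the log2 fold change was 1.41 (SE 0.18, adjusted p 0.000399). That block widened the calls across the table as well, with 28.2% of genes passing and 13.7% passing as higher.

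The log2 fold change of Ccn2 was larger under high than under low stretch by 0.73 (SE 0.65, 95% interval -0.65 to 2.11), a difference that did not pass (edgeR adjusted p 1). No gene of 22015 passed that test by edgeR or by DESeq2, and 547 had an unadjusted edgeR p under 0.05. With the plate run block the difference for Ccn2 was 0.72 (edgeR unadjusted p 0.0365, adjusted p 0.743), and 0.0136% of genes passed. The sizes of the Ccn2 change at the 2 deflections were thus not separated by these tests.

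Ccn1 (ENSMUSG00000028195), an angiogenic matricellular protein and a reference readout of YAP activity, did not pass the test at either amplitude. The unstretched libraries of experiment 1 measured 284, 398 and 702 CPM, and the low-stretch libraries lay within that range, from 326 to 606 CPM with a median of 543 CPM. For low stretch the estimate was a log2 fold change of 0.08 (SE 0.28, 95% interval -0.54 to 0.69, edgeR adjusted p 0.894). In experiment 2 the unstretched libraries measured 539, 778 and 1292 CPM and the high-stretch libraries 878, 937 and 979 CPM. All 3 high-stretch values lay between the second and the highest unstretched value. For high stretch it was 0.10 (SE 0.30, 95% interval -0.60 to 0.80, edgeR adjusted p 0.953). Both intervals reach from -0.54 or below to 0.69 or above.

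Within runs, Ccn1 was higher in 4 of the 6 low-stretch libraries and in 2 of the 3 high-stretch libraries. The libraries in which it was lower belonged to runs 2 and 6, whose unstretched libraries held the highest Ccn1 levels of their experiments. Within-run log2 differences ranged from -0.37 to 0.47 in experiment 1 and from -0.46 to 0.70 in experiment 2. With the plate run block the low-stretch estimate was 0.13 (SE 0.11), and the edgeR adjusted p was 0.418 for low and 0.851 for high stretch. The spread of Ccn1 among unstretched libraries was itself wide, with means of 461 ± 216 and 869 ± 385 CPM (SD, n = 3 each), whereas the 3 high-stretch libraries stood close together at 931 ± 50.7 CPM.

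**Figure D2:**
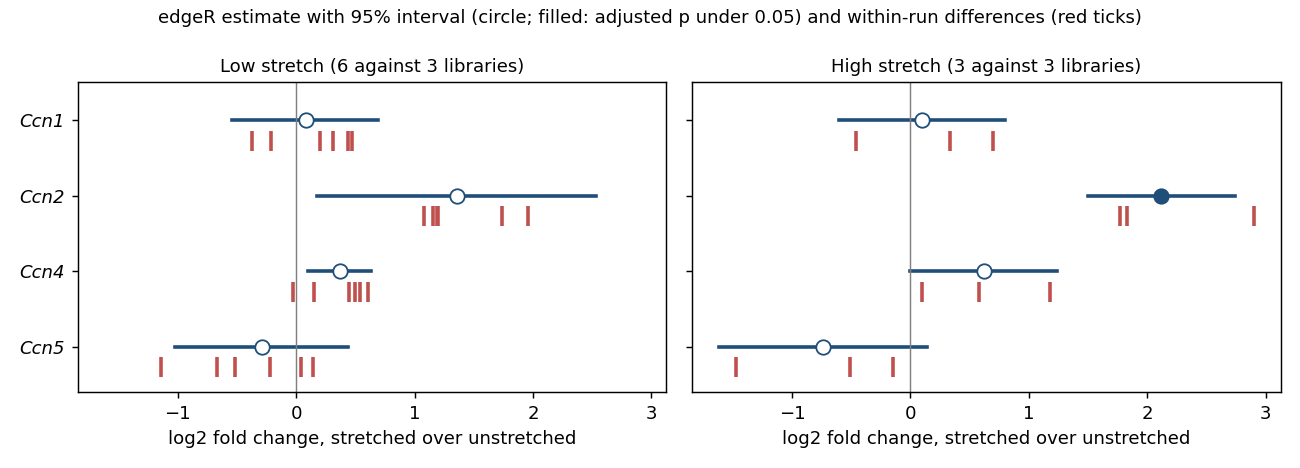
edgeR log2 fold change of stretched over unstretched libraries (horizontal axis) for 4 CCN genes with 95% intervals, filled where the adjusted p was under 0.05, and red ticks for each stretched library against the unstretched library of its own plate run. Only Ccn2 under high stretch is filled, at 2.12, while all 9 red ticks of Ccn2 lie at 1.08 or above.

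The paired behaviour of Ccn1 and Ccn2 can be read as the ratio of their counts within a library, which does not depend on how libraries are scaled. This ratio was chosen after the values had been seen and is given as a description. In experiment 1 it was 0.376, 0.619 and 0.621 in the unstretched libraries and ran from 0.698 to 1.82 in the low-stretch libraries. In experiment 2 it was 0.292, 0.376 and 0.460 in the unstretched libraries and 1.24, 1.43 and 1.72 in the high-stretch libraries. No stretched library overlapped the unstretched libraries of its experiment. Ccn2 counts were below Ccn1 counts in all 6 unstretched libraries and in low-stretch replicates 2 and 6, and above them in the other 7 stretched libraries. Mean log2 ratios differed by 1.25 in experiment 1 and by 1.97 in experiment 2, and leaving out any 1 library kept them at 1.01 to 1.41 and 1.80 to 2.13.

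**Figure D3:**
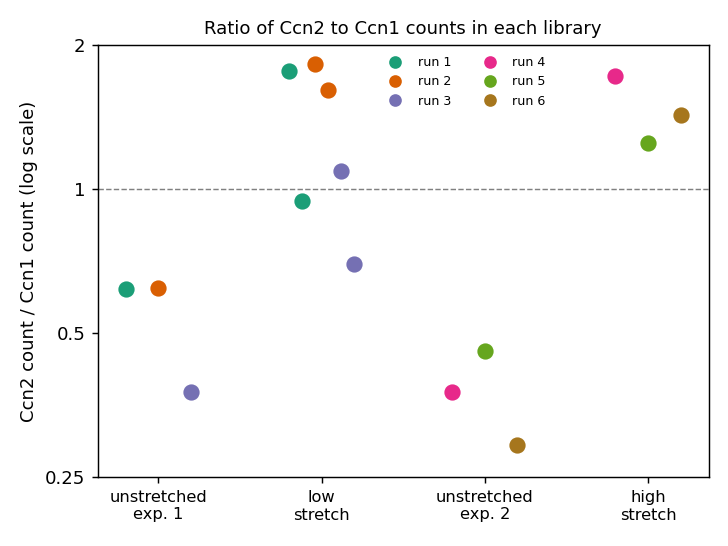
Ratio of Ccn2 to Ccn1 counts in each library (vertical axis, log scale, dashed line at equal counts) by group, coloured by plate run. Unstretched libraries lie between 0.292 and 0.621 and stretched libraries between 0.698 and 1.82.

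Ccn4 (ENSMUSG00000005124), a Wnt-regulated member that binds the proteoglycans decorin and biglycan, was somewhat higher in most stretched libraries without passing the test on groups. It measured 156, 188 and 212 CPM unstretched in experiment 1 and 208 to 287 CPM (median 231 CPM) under low stretch. Only low-stretch replicate 3, at 208 CPM, fell below the highest unstretched value. Its log2 fold change was 0.37 (SE 0.12, 95% interval 0.10 to 0.63, edgeR adjusted p 0.0984). With the plate run block it was 0.37 with an edgeR adjusted p of 0.0125, in a fit where 28.2% of all genes passed. DESeq2 without a block gave an adjusted p of 0.0437 and called 2837 genes, against 1181 by edgeR. In experiment 2 the unstretched libraries measured 50.7, 56.4 and 85.3 CPM and the high-stretch libraries 75.9, 91.6 and 127 CPM, with 1 high-stretch value inside the unstretched range. In that experiment the change was 0.62 (SE 0.27, edgeR adjusted p 0.345, and 0.113 with the plate run block). Within runs Ccn4 was higher in 5 of 6 low-stretch and 3 of 3 high-stretch libraries, and 19.3% of genes were higher in all 3 high-stretch pairs. Without unstretched replicate 3 of experiment 2, the library with the highest unstretched Ccn4, the change was 0.90 with an edgeR adjusted p of 0.0382. That fit called 1421 genes, against 643 with the library kept.

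Ccn5 (ENSMUSG00000027656), the member without the cystine knot, which is known as an antagonist of Ccn2-driven fibrosis, tended the other way without passing. Its unstretched values in experiment 1 were 7.21, 10.1 and 10.1 CPM, and the low-stretch libraries ranged from 3.27 to 11.1 CPM with a median of 7.51 CPM. The highest and the lowest values were both low-stretch, in runs 3 and 1. On the log2 scale the change was -0.29 (SE 0.33, 95% interval -1.02 to 0.44, edgeR adjusted p 0.629). In experiment 2 the unstretched libraries measured 8.74, 19.4 and 19.8 CPM and the high-stretch libraries 7.00, 7.88 and 13.9 CPM, again with overlap. The change was -0.74 on the log2 scale (SE 0.38, 95% interval -1.62 to 0.14, edgeR adjusted p 0.459). Within runs it was lower in 4 of 6 low-stretch and 3 of 3 high-stretch libraries, and 18.2% of genes were lower in all 3 high-stretch pairs. With the plate run block the edgeR adjusted p was 0.112 for low and 0.0962 for high stretch.

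Ccn3 (ENSMUSG00000037362) had 0 counts in 13 of 15 libraries, 2 counts in low-stretch replicate 3 and 1 count in low-stretch replicate 4. A count of 0 allows up to 3 counts, or 0.00756 to 0.0174 CPM at these depths, for counting error only. It passed no filter on low counts and was not tested. Ccn6, the remaining relative in mouse, was also scarce, with group means of 0.0112 to 0.132 CPM. Of the stretch comparisons it was tested only in experiment 1 and did not pass there (log2 fold change -0.30, edgeR adjusted p 0.477). Between the unstretched groups it passed, lower in experiment 2 (log2 difference -2.55, edgeR adjusted p 0.00728).

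Length-scaled levels allow the members to be set beside each other. TPM, a transcript abundance scaled to length and library size, summed over the transcripts of each gene, put Ccn1 first and Ccn2 second in all 6 unstretched libraries. Ccn1 averaged 422 ± 190 TPM and Ccn2 261 ± 159 TPM in the unstretched libraries of experiment 1 (SD, n = 3), where their ranges overlapped. Ccn4, at 70.2 ± 9.84 TPM, and Ccn5, at 11.2 ± 1.97 TPM, lay below both in every library of that group. Under low stretch Ccn2, at 608 ± 288 TPM, exceeded Ccn1, at 411 ± 92.3 TPM (SD, n = 6), with overlap. Under high stretch Ccn2 measured 1081 ± 218 TPM against 682 ± 33.0 TPM for Ccn1 (SD, n = 3 each), and the lowest Ccn2 value, 870.2 TPM, was above the highest Ccn1 value, 709 TPM. Among 51725 genes with TPM, Ccn2 ranked between 123 and 203 in the high-stretch libraries and between 360 and 955 in the unstretched libraries of experiment 2.

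As a share of the TPM of the 5 members, Ccn2 went from a mean of 32.3% to 52.0% under low stretch and from 28.1% to 59.6% under high stretch, as a description without a test. The share of Ccn1 went from 55.6% to 38.4% and from 67.7% to 38.2%, while its own level did not pass the test in either direction. Summed over the family, TPM went from 764 ± 353 to 1111 ± 350.4 in experiment 1 and from 1053 ± 604 to 1804 ± 258 in experiment 2 (SD, n = 3, 6, 3 and 3).

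**Figure D4:**
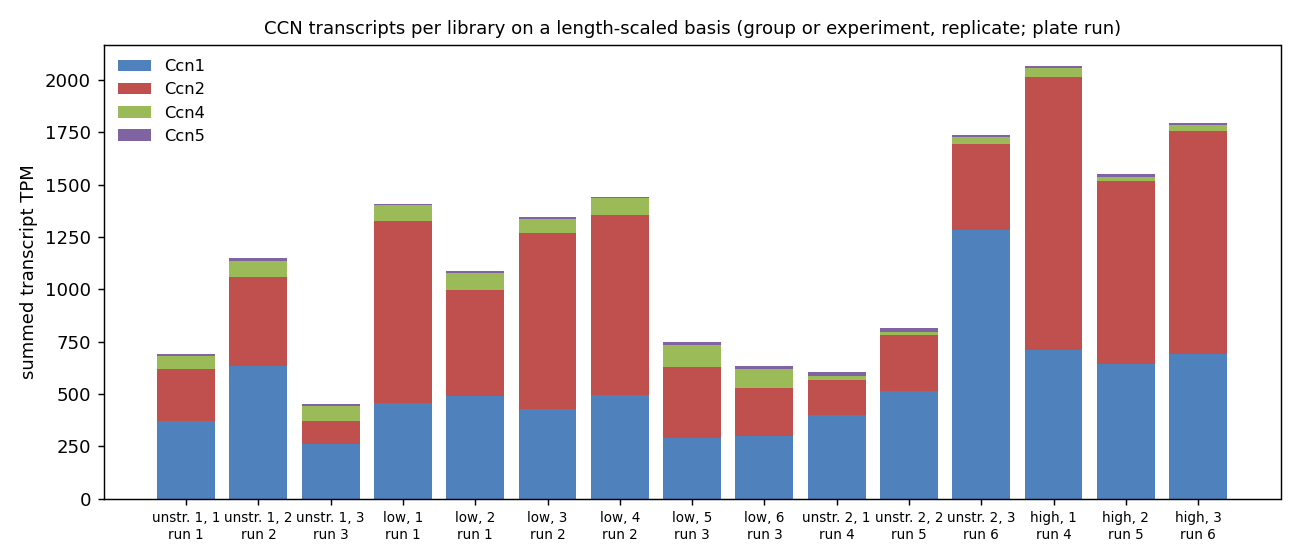
Summed TPM of Ccn1, Ccn2, Ccn4 and Ccn5 stacked for each library (vertical axis, linear, from 0), with group, replicate and plate run below each bar. The Ccn2 segment is taller than the Ccn1 segment in all 3 high-stretch bars and shorter in all 6 unstretched bars.

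Baseline levels differed between the experiments. In the unstretched libraries of experiment 2 against those of experiment 1, the log2 difference of Ccn1 was 1.25 (edgeR adjusted p 0.0226), that of Ccn5 was 1.16 (edgeR adjusted p 0.0161) and that of Ccn4 was -1.20 (edgeR adjusted p 0.00539). On library sizes scaled over the 6 unstretched libraries, the scale of this test, Ccn4 was well apart, at 144 to 190.4 CPM in experiment 1 and 59.2 to 96.4 CPM in experiment 2. Ccn1, at 262 to 632 and 634 to 1459.5 CPM, and Ccn5, at 6.65 to 9.32 and 9.88 to 23.1 CPM, only just did not overlap on that scale, and both overlapped on the CPM scaled within experiments given above. The Ccn1 call was lost without unstretched replicate 1 or 3 of experiment 1 or replicate 3 of experiment 2, with differences of 1.16, 1.00 and 0.82. The Ccn5 call was lost without unstretched replicate 1 of experiment 1 or of experiment 2, with differences of 1.01 and 1.00. Ccn2 did not pass, at 0.59 (edgeR adjusted p 0.275). Passing was common here, since 62.5% of 20707 genes passed and 72.9% did not overlap on the same scale, so the members' counts stand near that background. Those unstretched libraries are also the controls of the stretch comparisons. Levels are therefore not compared between low-stretch and high-stretch libraries.

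The transcript table lists 1 transcript of Ccn1, 3 of Ccn2, 6 of Ccn4 and 2 of Ccn5. ENSMUST00000020171 carried 96.1% to 97.8% of Ccn2 TPM on average in each group, so the rise of Ccn2 was a rise of this transcript, from 275 ± 116 to 1060 ± 212 TPM under high stretch (SD, n = 3 each). Ccn5 was split between the coding ENSMUST00000029188 and the noncoding ENSMUST00000138730, whose mean share was 19.1% to 20.9% in every group. Ccn4 was mainly the coding ENSMUST00000005255, at 87.9% and 88.7% in the groups of experiment 1 and 81.6% and 81.9% in those of experiment 2. No usage change of a Ccn4 or Ccn5 transcript passed limma (adjusted p 0.823 to 0.999). Over all genes 4 of 27720 transcripts, or 0.0144%, passed under low stretch and 0 of 23408 under high stretch by limma, with 1881 at an unadjusted p under 0.05.

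In the gene lists around the family, TGF-beta/SMAD targets had the most calls under high stretch. Of 11 tested, 4 rose, none fell and 7 did not pass, with a median log2 fold change of 0.54 against -0.02 over all genes and against the 1.31% of genes called higher. Among them were Pmepa1 (1.97, edgeR adjusted p 0.00824), a feedback inhibitor of the pathway, the transcription factor Bhlhe40 (1.06, edgeR adjusted p 0.0228) and the inhibitory Smad7 (0.95, edgeR adjusted p 0.0253). Pmepa1 measured 126 ± 11.6 against 32.2 ± 9.79 CPM (SD, n = 3 each). Pmepa1 and Smad7 are inhibitors of the pathway that induces them. Of those that did not pass, Ltbp2 (-0.84, edgeR adjusted p 0.203) and Smad6 (-0.62, edgeR adjusted p 0.206) had lower values in every high-stretch than in any unstretched library. Id1, also not passing (0.31, edgeR adjusted p 0.496), was higher without overlap. Of the 11, 5 were higher and 2 lower without overlap between groups, against 10.5% and 10.3% of all genes. The count of 4 became 0 without unstretched replicate 1 of experiment 2, high-stretch replicate 1 or high-stretch replicate 3, and 2 without high-stretch replicate 2 or with limma on TPM. Under low stretch 1 of 11 rose, Pmepa1 (1.49, edgeR adjusted p 0.0293), with a list median of 0.23 against 0.01 over all genes, of which 1.85% were called higher. The Pmepa1 call was lost without unstretched replicate 1 or 3 of experiment 1 or low-stretch replicate 4. The plate run block called 3 of the list higher and 3 lower under low stretch, against 13.7% and 14.5% of all genes. DESeq2 called 3 higher and 2 lower there, among 2837 genes. Under high stretch the block called 5 higher and none lower, against 3.31% and 5.03% of all genes. DESeq2 called 4 higher and none lower under high stretch, among 1403 genes.

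Targets of the actin-regulated MRTF/SRF pathway had the highest median of the 7 lists under both amplitudes, beside 0.01 and -0.02 over all genes. Under low stretch 3 of 15 rose and none fell, with a median of 0.49, against 1.85% of all genes called higher. They were the tropomyosins Tpm1 (0.73, edgeR adjusted p 0.00628) and Tpm2 (0.60, edgeR adjusted p 0.0349) and the myosin light chain Myl9 (0.96, edgeR adjusted p 0.0387). Under high stretch the median was 0.65 and 1 of 15 rose, against 1.31% of all genes, the smooth muscle actin Actg2 (1.99, edgeR adjusted p 0.0472), at 0.549 against 0.140 CPM. When plate run was a block, 9 of 15 passed as higher under low and 7 of 15 under high stretch, against 13.7% and 3.31% of all genes. The low-stretch count was 1 under 7 of the 9 omissions of a single library, namely each unstretched library and low-stretch replicates 1 to 4, and 7 without low-stretch replicate 5. The high-stretch count was 6 without unstretched replicate 2, 3 without unstretched replicate 3 and 0 under the other omissions.

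The list of YAP/TEAD targets, taken without the CCN genes, had calls in both directions under low stretch and 1 call under high stretch. Under low stretch 1 of 19 rose, Myof (0.44, edgeR adjusted p 0.00955), which acts in membrane repair, and 1 fell, the phosphatase Ptpn14 (-0.51, edgeR adjusted p 0.0252), with a median of -0.16, against 1.85% of all genes called higher and 3.6% lower. Under high stretch 1 of 19 rose, the transcription factor Foxf2 (1.88, edgeR adjusted p 0.0250), at 1.28 against 0.346 CPM. The list median there was 0.18 against -0.02 over all genes, of which 1.31% were called higher. The low-stretch calls were 0 in both directions without unstretched replicate 1 or 3, 2 higher without unstretched replicate 2, 0 lower without low-stretch replicate 4, and 2 in each direction without low-stretch replicate 5. The high-stretch count was 6 higher and 2 lower without unstretched replicate 3 and 0 without unstretched replicate 1 or high-stretch replicates 1 or 3. The plate run block called 7 higher and 7 lower under low stretch and 3 higher and 2 lower under high stretch. Of all genes the block called 13.7% higher and 14.5% lower under low stretch and 3.31% higher and 5.03% lower under high stretch. None of the 12 upstream factors passed edgeR at either amplitude, with 6 and 0 at an unadjusted p under 0.05, against 23.6% and 14.6% of all genes. The block called 5 of them higher and 2 lower under low stretch, among them Tead2 (edgeR adjusted p 0.000875) and Tead4 (edgeR adjusted p 0.0116), and none under high stretch. DESeq2 called 2 of them under low and 0 under high stretch. The lowest p-values belonged to Tead4 (-0.39, edgeR adjusted p 0.0653) and Tead2 (0.35, edgeR adjusted p 0.0940) under low stretch and to Mrtfa (0.38, edgeR adjusted p 0.529) and Yap1 (0.31, edgeR adjusted p 0.655) under high stretch.

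Among the partners of CCN proteins, the matrix glycoprotein fibronectin was the one called at both amplitudes. Fn1 measured 6385 ± 943 CPM (SD, n = 6) against 3314 ± 803 CPM (SD, n = 3) under low stretch (0.95, edgeR adjusted p 0.0132) and 8706 ± 974 against 2998 ± 275 CPM (SD, n = 3 each) under high stretch (1.54, edgeR adjusted p 0.00844). The proteoglycan gene Hspg2 fell under low stretch (-0.63, edgeR adjusted p 0.0283), where 3.6% of all genes were called lower and 1.85% higher, a call lost without any 1 of the unstretched libraries or low-stretch replicates 1 or 4. Of 8 partners tested, 1 rose and 1 fell under low stretch and 1 rose under high stretch, where 1.31% of all genes were called higher. The plate run block called 2 partners higher and 1 lower under low stretch, against 13.7% and 14.5% of all genes. Under high stretch it called 1 higher and 1 lower, against 3.31% and 5.03% of all genes. The Fn1 call was lost without unstretched replicate 1 or 3 in experiment 1, and in experiment 2 without unstretched replicate 1 or high-stretch replicates 1 or 3. Of 13 receptors, 1 fell under low stretch, the syndecan Sdc4 (-0.40, edgeR adjusted p 0.0224), where 3.6% of all genes were called lower. Under high stretch 1 of 13 rose, where 1.31% of all genes were called higher. It was the integrin subunit Itgb3 (1.50, edgeR adjusted p 0.0382), from 1.85 ± 0.619 to 5.25 ± 0.872 CPM (SD, n = 3 each). With the plate run block, 5 receptors were called higher and 5 lower under low stretch, against 13.7% and 14.5% of all genes. Under high stretch that block called 3 higher and none lower, against 3.31% and 5.03% of all genes. The Sdc4 call was lost without any 1 of the unstretched libraries or low-stretch replicate 4, while 2, 2 and 3 receptors were called lower without low-stretch replicates 2, 3 and 5. The Itgb3 call was lost in 5 of the 6 omissions, and without unstretched replicate 3 of experiment 2 the count of receptors called higher was 3.

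The IGFBP family, which shares its N-terminal module with CCN proteins, had no call among 5 under low stretch by edgeR. Of the 5, 3 had an unadjusted edgeR p under 0.05, as had 23.6% of all genes, and DESeq2 called 2 among 2837 genes. The plate run block called 1 higher and 2 lower, namely Igfbp7, and Igfbp2 and Igfbp5 (edgeR adjusted p 0.00214, 0.00965 and 0.00211). Of all genes that block called 13.7% higher and 14.5% lower. Without the block, the lowest p-values under low stretch were those of Igfbp2 (-0.56, edgeR adjusted p 0.0906) and Igfbp5 (-1.13, edgeR adjusted p 0.0909). Under high stretch 1 of 4 fell, Igfbp4 (-2.93, edgeR adjusted p 0.0253), at 0.0580 against 0.415 CPM, where 2.16% of all genes were called lower. That call was lost without unstretched replicate 1 or high-stretch replicates 1 or 3, and 2 were called lower without unstretched replicate 3. With the plate run block, 1 of the 4 was called higher and 2 lower under high stretch, against 3.31% and 5.03% of all genes.

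**Figure D5:**
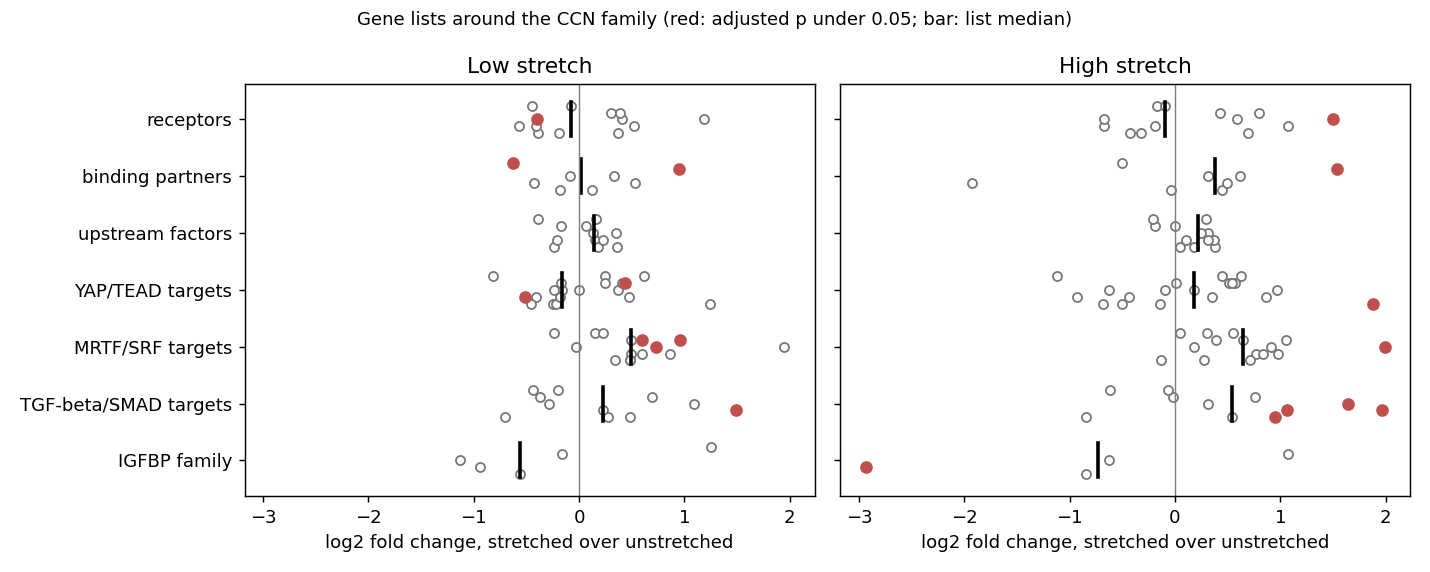
edgeR log2 fold changes (horizontal axis) of the tested genes in 7 lists around the CCN family for low and high stretch, red where the adjusted p was under 0.05, with a bar at each list median. The bar of the MRTF/SRF targets lies at 0.49 and 0.65, and the 4 red points of the TGF-beta/SMAD targets under high stretch lie between 0.95 and 1.97.

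The genes with the most similar profiles differed between members. Profiles were log2 CPM centred on each experiment's mean over 15 libraries, among 12957 genes, and are descriptions of libraries that share runs and conditions. Those nearest to Ccn2 were Il18rap (r = 0.983), Ctla2a (r = 0.978) and Lef1 (r = 0.975). Under high stretch their log2 fold changes were 2.83, 1.84 and 2.27 (edgeR adjusted p 0.0227, 0.0222 and 0.00622). They were picked for likeness to Ccn2 in the same libraries, so these calls follow from the choice and are not separate evidence. Those nearest to Ccn1 were Dusp5 (r = 0.911), Spry4 (r = 0.902) and Phlda1 (r = 0.901). None of them was called at either amplitude, which the choice also favours, since Ccn1 was not called. Those nearest to Ccn4 were Adgrg6, Cdh2 and Thrap3 (r from 0.948 to 0.956), and those nearest to Ccn5 were P3h3, Itpk1 and Tns2 (r from 0.942 to 0.961). Between members, r was 0.649 for Ccn1 and Ccn2, 0.536 for Ccn2 and Ccn4 and -0.618 for Ccn2 and Ccn5. Centred on plate run, the same pairs had r of 0.474, 0.885 and -0.811.

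Ccn2 overlaps the noncoding gene Gm15270 on the opposite strand in the annotation. Gm15270 had between 46 and 166 counts per library, at most 0.325% of the Ccn2 count. The library kit was stranded, and the strand setting of the counting is not given in the sources used here.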

How the data were processed

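Poly(A) RNA of 15 libraries was sequenced in pairs after a stranded preparation, per the labels' protocols. The authors deposited raw counts per Ensembl gene and TPM per Ensembl transcript. The submitters' processing notes name STAR 2.7.5c, featureCounts, Subread 2.0.0, DESeq2 1.38.3, Salmon 1.9.0 and the build mm39. The annotation release, the strand setting and the counting of read pairs are not given in the sources used here. Libraries summed to between 172.2 and 396.7 M counts (megacounts). GENCODE M21 supplied symbols for 52083 of 55416 genes and linked 137189 of 140789 transcripts to genes. Genes without a symbol took at most 0.231% of a library's counts.

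The gene test was that of edgeR 4.0.16, run under R 4.3.3 (TMM, filterByExpr, glmQLFit and glmQLFTest) with Benjamini-Hochberg adjustment over all genes tested at 0.05. The fit of a stretch comparison held the libraries of 1 experiment. CPM used library sizes scaled by TMM within each experiment, and log2 CPM a prior count of 2. Intervals are at 95%. Transcript usage was tested with limma 3.58.1 on the log2 odds of each transcript within its gene, its TPM over the summed TPM of the rest, after adding 0.1 to either side, for genes with a mean of at least 1 TPM and mean fractions of 0.05 to 0.95. The tests were tested on simulated data, in which libraries were drawn independently and without plate runs. Libraries that deviate together within a run were thus not covered. No 2 libraries had identical values.

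The members and lists were chosen with earlier results of these data known. Some genes that the rule or the marker lists name are not reported here. The rule for named genes took all 5 members and Ccn6, from each list the called genes (at most the 4 lowest p per comparison, or the 2 lowest p where none was called), and for each member the 3 genes of highest correlation with a mean of at least 1 CPM. YAP/TEAD and IGFBP lists share Igfbp3, and the upstream and MRTF/SRF lists share Srf. Alternatives were DESeq2 1.42.0, RLE factors, unfiltered genes, a minimum mean count of 100, all 15 libraries in 1 fit, limma on summed TPM, blocks on replicate number or plate run, pseudocounts of 0.01 and 1 TPM, and each library left out. The ratio of Ccn2 to Ccn1 and the list counts under each alternative were added after the data were seen. A correlation of deviations from group means showed plate runs of experiment 1 to deviate together (0.326 to 0.567), whereas the replicate numbers did not (-0.438 to 0.363). In experiment 2 numbers and runs coincide (-0.170 to 0.465).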

Additional observations from a re-analysis of the deposited data

How the results depend on the processing

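Ccn2 under high stretch stayed called in all 7 distinct alternatives other than omissions (log2 fold change 2.01 to 2.16) and in 4 of 6 omissions of a library, which ranged from 1.88 to 2.30. Ccn2 under low stretch was called only with the plate run block (1.41) and ranged from 0.98 to 1.94 over the omissions. Ccn4 was called under low stretch with DESeq2 (0.37) and the plate run block (0.37). Its omissions under high stretch ranged from 0.39 to 0.90. Ccn1 changed sign within an omission range of -0.18 to 0.51 under low and -0.15 to 0.52 under high stretch. Ccn5 was never called in a stretch comparison.

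In experiment 1 the replicate numbers do not pair the libraries, whereas in experiment 2 they are the same pairs as the plate runs used above. By the correlation of deviations from group means, that pairing was uneven. High-stretch replicate 1, of run 4, had r = -0.17 with its own unstretched library and 0.45 with unstretched replicate 3. With the replicate block, Ccn2 had 1.82 (edgeR adjusted p 0.138) under low and 2.16 (edgeR adjusted p 1.64e-08) under high stretch, and the fit called 490 and 1546 genes. In the latter 2 of 3 stretched libraries correlated best with their own number, against 1 of 3 in experiment 1.

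Genes called under low stretch numbered 1181, and 2837 with DESeq2, 640 with all libraries in 1 fit, 6106 with the plate run block and 220 to 1630 over omissions. Those under high stretch numbered 643, and 1403 with DESeq2, 1050 without a filter, 414 at a mean count of 100, 1488 in 1 fit, 326 with limma on TPM, 1546 with the plate run block and 14 to 1421 over omissions.

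For the difference between effects, 3 genes passed with the plate run block. There Ccn1 (0.00) changed sign with DESeq2 (-0.04), RLE factors (-0.04), the replicate block (-0.17) and within the omission range of -0.42 to 0.45, and Ccn5 (-0.48) with the replicate block (0.07). The baseline difference of Ccn1 was lost in 3 omissions (range 0.82 to 1.67) and that of Ccn5 in 2 (0.99 to 1.41).

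Transcripts called for usage under low stretch were 4, and 1 and 75 with pseudocounts of 0.01 and 1 TPM, 89 without a filter, 0 with the replicate block, 37 with the plate run block and 1 to 8 over omissions. Under high stretch they were 0, and 3 with a pseudocount of 1 TPM, 9 without a filter and 0 to 10 over omissions. With a pseudocount of 1 TPM the uncalled usage changes reversed for ENSMUST00000138730 (0.12 low, 0.05 high), ENSMUST00000029188 (-0.12 low, -0.05 high) and ENSMUST00000147079 (-0.03 low). Over omissions under low stretch, the first and second ranged from -0.06 to 0.06, the third from -0.13 to 0.14 and ENSMUST00000005255 from -0.02 to 0.23. Under high stretch the third ranged from -0.13 to 0.26 and ENSMUST00000005255 from -0.10 to 0.20. The causes were not tested. An omission in experiment 2 leaves 5 libraries, which limits what the test can call.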

Other observations

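A nonsense-mediated decay transcript of Ccn4, ENSMUST00000147079, took 7.92% ± 1.42 of Ccn4 TPM in the unstretched libraries of experiment 1 and 16.2% ± 3.59 in those of experiment 2 (SD, n = 3 each). The ranges, 6.63% to 9.44% and 12.3% to 19.4%, did not overlap. Lack of overlap was common between these groups, at 72.9% of genes by CPM, and was not counted for transcript shares. The stretched groups stood at 7.92% ± 1.02 (SD, n = 6) and 17.1% ± 2.59 (SD, n = 3), each close to the unstretched group of its own experiment. The experiment difference was not tested. The TPM of the transcript itself was 5.65 ± 1.76 and 3.43 ± 0.823 in the unstretched groups, while that of the main coding transcript was 61.6 ± 7.41 and 18.8 ± 9.92.

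Run 3 held the lowest Ccn1 and Ccn2 values of experiment 1 in the unstretched library and in both low-stretch libraries. The same low-stretch libraries held the highest Ccn4 (287 and 256 CPM) and Ccn5 values (11.1 and 10.4 CPM) of the low-stretch group. In experiment 2, high-stretch replicate 1 had the highest Ccn2 and Ccn4 and the lowest Ccn5 and Ccn1 of its group by CPM. By TPM its Ccn1 value, 709, was the highest of the group.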
